A study of Homo sapiens with 4 samples.

Results

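The JAK kinases and STAT factors were followed at the level of their transcripts in MyLa and HH, 2 human lines of malignant skin T cells, with and without IL-32γ. Of the 9 genes JAK1, JAK2, JAK3, TYK2, STAT2, STAT3, STAT4, STAT5A and STAT5B, 8 had at least 1 probe set on the array that names them as its single gene, out of 19775 genes so named. STAT2 had none and is not analysed here. The 8 genes were read by 24 of the 54675 probe sets, all of which are accounted for below. MyLa is a mycosis fungoides line, and HH is labelled as a line of cutaneous T cell lymphoma. The groups were MyLa and IL-32γ at 5 ng/ml, MyLa without IL-32γ (control), HH and IL-32γ at 5 ng/ml, and HH without it (control). IL-32γ is a splice form of the cytokine interleukin-32. All were cultured for 40 hours in 0.1% serum. There was 1 array per line and condition, 4 in all, so a difference with IL-32γ inside a line has no replicate check and no test. Each probe set has 1 log2 value per array, and values under 5 were treated as not measured. Values were compared between arrays for 1 probe set at a time, apart from a sum over marker genes given below.

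Cytokine receptors of the haematopoietic families have no kinase of their own. JAK kinases are bound to their intracellular tails and, once a cytokine brings receptor chains together, phosphorylate the receptor and then the STAT proteins that dock on it. Phosphorylated STATs pair, enter the nucleus and bind DNA. JAK1 and JAK3 serve the receptors that share the common gamma chain, such as those of IL-2 and IL-7, JAK2 those of GM-CSF and interferon gamma among others, and TYK2 those of type I interferon and IL-12. STAT5A and STAT5B are close relatives activated by IL-2 family cytokines, STAT3 is activated by IL-6, IL-10 and IL-21, and STAT4 by IL-12. Active STAT3 and STAT5 are well known in malignant T cells of the skin.

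The clearest feature was a difference between the lines. STAT3, STAT5A, STAT5B and TYK2 were higher in MyLa on every probe set measured in both lines, by 3.61-fold to 17.2-fold on the brightest one of each gene, while JAK2 was lower in MyLa on both probe sets measured in both lines. JAK1, JAK3 and STAT4 were not called different. With IL-32γ no member was called across the lines, and within MyLa probe sets of the same gene often pointed in opposite ways.

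The 3 STAT genes that were higher in MyLa lie next to each other on chromosome 17, and the bases before their starts are shown here because these neighbours differed together, with those of TYK2, the JAK that differed in the same direction. Each is the 250 bases before the outermost start that the promoter table lists for the gene, read on the gene's own strand from RefSeq (GRCh38.p14). Capitals mark 2 promoter motifs searched on both strands, the GC box GGGCGG and the CCAAT box.
STAT3, chr17:42388443-42388692, minus strand: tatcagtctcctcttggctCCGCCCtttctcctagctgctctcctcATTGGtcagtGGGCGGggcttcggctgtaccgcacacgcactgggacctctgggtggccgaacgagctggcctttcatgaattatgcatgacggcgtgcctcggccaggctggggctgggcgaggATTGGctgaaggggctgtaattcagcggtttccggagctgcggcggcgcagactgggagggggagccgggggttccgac
STAT5A, chr17:42287189-42287438, plus strand: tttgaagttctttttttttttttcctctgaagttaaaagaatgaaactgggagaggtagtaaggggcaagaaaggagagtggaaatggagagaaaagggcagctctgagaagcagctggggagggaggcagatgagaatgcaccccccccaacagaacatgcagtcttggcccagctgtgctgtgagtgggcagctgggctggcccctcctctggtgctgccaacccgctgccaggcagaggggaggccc
STAT5B, chr17:42276392-42276641, minus strand: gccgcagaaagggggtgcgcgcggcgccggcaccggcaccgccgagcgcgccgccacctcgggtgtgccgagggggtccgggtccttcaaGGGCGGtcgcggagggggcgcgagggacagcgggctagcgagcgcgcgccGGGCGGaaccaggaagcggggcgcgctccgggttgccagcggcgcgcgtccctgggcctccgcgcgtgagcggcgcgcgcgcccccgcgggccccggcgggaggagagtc
TYK2, chr19:10380573-10380822, minus strand: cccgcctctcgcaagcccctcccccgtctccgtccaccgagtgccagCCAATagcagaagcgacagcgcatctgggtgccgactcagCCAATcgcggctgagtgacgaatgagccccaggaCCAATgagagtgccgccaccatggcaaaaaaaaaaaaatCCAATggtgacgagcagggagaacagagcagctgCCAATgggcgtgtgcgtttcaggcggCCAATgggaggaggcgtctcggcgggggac
STAT3 held 2 matches to GGGCGG and 2 to CCAAT, STAT5B held 2 to GGGCGG, and TYK2 held 6 to CCAAT, while the window of STAT5A shown held neither. Another window listed for STAT5A, at chr17:42288248-42288497, held 1 match to GGGCGG. Over all 35116 windows of this length in the table, 42.6% held GGGCGG and 32.0% held CCAAT. The core that STAT dimers bind, TTCNNNGAA, was found in none of the 17 windows of the 9 genes and in 6.57% of all windows. A match is a description of the letters, and no match says only that they are not in these windows.

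Between 23433 and 23686 probe sets lay at 5 or more on an array. Of 12 T cell markers, 10 were at 5 or more somewhere. CD7 and the kinase gene LCK were below 5 on all 4 arrays, CD4, CD3E and CD5 were below 5 on both MyLa arrays, and CD8A on both HH arrays. None of 5 B cell markers and none of the 4 myeloid markers with a probe set reached 5. Of the 4 keratinocyte markers with a probe set, KRT10 was measured on all 4 arrays, between 11.44 and 11.66. KRT5, KRT14 and KRT1 were below 5 on every array. Of 5 fibroblast markers, COL1A1 and COL3A1 were measured in MyLa, while COL1A2, DCN and LUM were below 5 on every array. The summed log2 level of the 5, values below 5 included, was 30.4 and 30.9 on the MyLa arrays, with 2 of the 5 measured, against 14.7 and 13.8 on the HH arrays, with 1 measured with IL-32γ and 0 without, and its part in the differences between lines was not tested. The probe set at the 5′ end of ACTB, which falls when RNA is short or degraded, read 11.81 with IL-32γ and 10.12 without in MyLa, and 13.58 with IL-32γ and 12.69 without in HH, while the 3′ probe set stayed between 15.07 and 15.27. The part of these 5′ values in the results below was not tested. In RNA of a whole culture, fewer expressing cells and less RNA per cell cannot be told apart.

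Of the 24 probe sets, 16 were at 5 or more on all 4 arrays, 3 on the 2 arrays of 1 line only, and 5 on none. The 5 below the floor were 1 of 5 for JAK1, 3 of 4 for JAK3 and 1 of 4 for STAT3. The 19 others entered the comparison of MyLa with HH, in limma over 25306 probe sets, each line being represented by its 2 arrays. Their spread holds the IL-32γ response, and nothing in the labels says that the 2 arrays of a line were separate cultures otherwise treated alike. A probe set was called at an adjusted p (Benjamini-Hochberg) under 0.05 and at 2-fold or more.

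Among the 19 probe sets, 10 were called higher in MyLa and 3 lower, with adjusted p-values between 0.000207 and 0.0416. Of these 13 calls, 3 belong to probe sets below 5 in 1 line, which passed the filter through the other line alone and had to differ. Over all probe sets tested, 19.5% were called higher in MyLa and 17.9% lower, which makes 37.5% in either direction. Of the 16 member probe sets at 5 or more on all 4 arrays, 8 were called higher in MyLa and 2 lower, against 14.1% and 13.4% of the 20932 such probe sets. The median difference of the 16 was 1.19, against -0.02 over those 20932. Several of these probe sets read the same gene, so genes with more probe sets weigh more in these counts and in the median. By the brightest probe set, 4 of the 8 genes were called higher and 1 lower, against 19.6% and 17.3% of all genes tested. The arrays of the 2 lines did not overlap for 16 of the 19, against 80.2% of all tested probe sets.

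**Figure D1:**
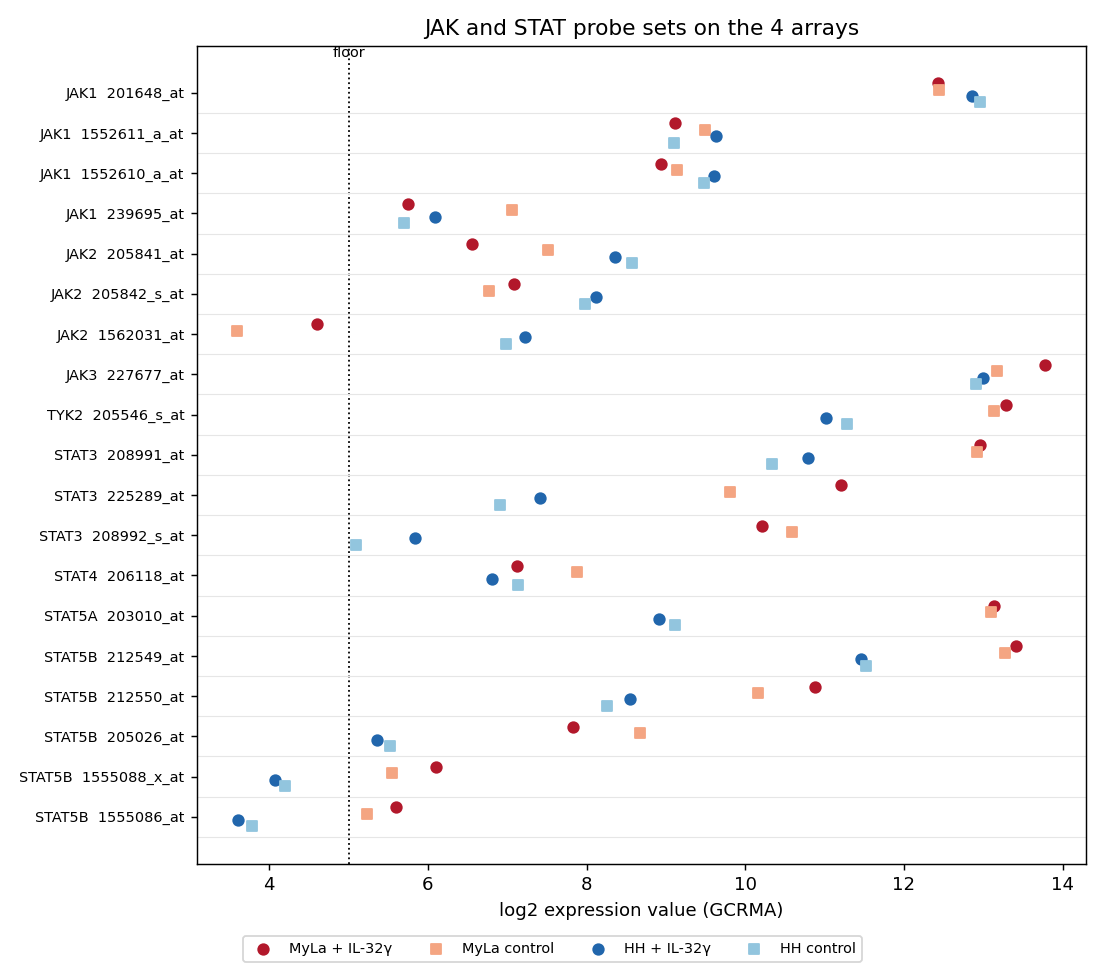
Log2 expression value (x axis) of the 19 JAK and STAT probe sets at 5 or more on some array (y axis), with 1 point per array: MyLa with IL-32γ, MyLa control, HH with IL-32γ and HH control. The dotted line is the floor of 5, and the MyLa points stand to the right of the HH points for TYK2, STAT3, STAT5A and STAT5B and to the left for JAK2.

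Of the kinases, TYK2 was read by 1 probe set. It stood at 13.28 with IL-32γ and 13.14 without in MyLa, and at 11.02 with IL-32γ and 11.29 without in HH. Both MyLa arrays were thus above both HH arrays, by 4.18-fold (log2 difference 2.06, SE 0.16, adjusted p = 0.00188 in limma). The name of this probe set marks probes that can match several transcripts, and no other one reads the gene here.

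JAK2, the kinase of the GM-CSF and interferon gamma receptors, was the one member called lower in MyLa. Its brightest probe set, 205841_at, read 6.55 with IL-32γ and 7.52 without in MyLa, and 8.36 with IL-32γ and 8.57 without in HH. The gap of almost 1 log2 unit between the MyLa arrays made its error wide (MyLa minus HH -1.44, SE 0.38, adjusted p = 0.0416 in limma). The probe set 205842_s_at read 7.09 with IL-32γ and 6.77 without in MyLa, and 8.12 with IL-32γ and 7.98 without in HH. Its difference was -1.13 with a SE of 0.17 (adjusted p = 0.0103). The third, 1562031_at, was below 5 on both MyLa arrays and at 7.22 with IL-32γ and 6.98 without in HH, which makes JAK2 at least 4.30-fold higher in HH on it. It passed the filter through HH alone, so it had to differ. All 3 calls were lost when the HH IL-32γ array or the HH control array was left out (adjusted p of 0.205 and 0.237 for 205841_at), while the differences kept their sign. Without the MyLa IL-32γ array the difference of 205841_at was -0.95 (adjusted p = 0.0534).

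JAK1, the partner of JAK3 and of most other JAKs, was nearly level. Its brightest probe set, 201648_at, read 12.43 with IL-32γ and 12.44 without in MyLa, and 12.85 with IL-32γ and 12.96 without in HH. The MyLa arrays were lower, but by less than 2-fold (-0.47, SE 0.12, adjusted p = 0.0402). The other 3 measured probe sets of JAK1 differed by -0.50 (adjusted p = 0.0527), -0.07 and 0.51, and on the last 2 the arrays of the lines overlapped.

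JAK3, which binds the common gamma chain alone, was read by 227677_at at 13.78 with IL-32γ and 13.18 without in MyLa, and at 13.00 with IL-32γ and 12.90 without in HH. The MyLa arrays lay above the HH arrays, but the difference of 0.53 was no larger than the spread allowed, with a 95% interval of -0.18 to 1.23 (adjusted p = 0.156 in limma). The interval leaves room for a difference of over 2-fold. The other 3 JAK3 probe sets were below 5 on all arrays, with a highest value of 4.78.

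Of the members, STAT5A had the smallest adjusted p. Its single probe set, 203010_at, read 13.13 with IL-32γ and 13.10 without in MyLa, and 8.91 with IL-32γ and 9.11 without in HH. The levels within a line were alike and the lines stood 17.2-fold apart (4.10, SE 0.14, adjusted p = 0.000207 in limma).

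STAT5B, its close relative, was higher in MyLa on the 3 probe sets measured in both lines, with differences of 1.85 to 2.81. The brightest, 212549_at, read 13.41 with IL-32γ and 13.27 without in MyLa, and 11.46 with IL-32γ and 11.52 without in HH. That is 3.61-fold (1.85, SE 0.13, adjusted p = 0.00142). The probe set 212550_at read 10.88 with IL-32γ and 10.16 without in MyLa, and 8.55 with IL-32γ and 8.25 without in HH, which is 4.35-fold. On 205026_at the values were 7.83 with IL-32γ and 8.67 without in MyLa, and 5.36 with IL-32γ and 5.52 without in HH. This 7.02-fold difference rests on HH values near the floor. The remaining pair, 1555088_x_at and 1555086_at, were below 5 in HH and give bounds of at least 1.78-fold and at least 1.33-fold. The pair passed the filter through MyLa alone, so they had to differ. The 2 genes have much sequence in common, and whether each probe set reads its own gene alone was not tested.

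STAT3 was higher in MyLa on its 3 measured probe sets, by sizes that disagreed. The brightest, 208991_at, read 12.95 with IL-32γ and 12.92 without in MyLa, and 10.79 with IL-32γ and 10.34 without in HH. This is 5.17-fold (2.37, SE 0.20, adjusted p = 0.00233 in limma). On 225289_at the values were 11.21 with IL-32γ and 9.81 without in MyLa, and 7.41 with IL-32γ and 6.91 without in HH, with a difference of 3.35 and a SE of 0.55. On 208992_s_at they were 10.22 with IL-32γ and 10.59 without in MyLa, and 5.83 with IL-32γ and 5.09 without in HH. HH stood close to the floor there, and the difference of 4.94 (SE 0.32, adjusted p = 0.0012) was the largest of any member. The direction held on all 3, and the size ran from 5.17-fold to 30.8-fold depending on the probe set.

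STAT4, the factor of IL-12 signalling and of Th1 cells, had 1 probe set, at 7.12 with IL-32γ and 7.88 without in MyLa, and at 6.81 with IL-32γ and 7.14 without in HH. The arrays of the lines overlapped, since the HH control stood just above MyLa with IL-32γ. The difference of 0.53 had a 95% interval of -0.38 to 1.43 and was not called (adjusted p = 0.243).

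**Figure D2:**
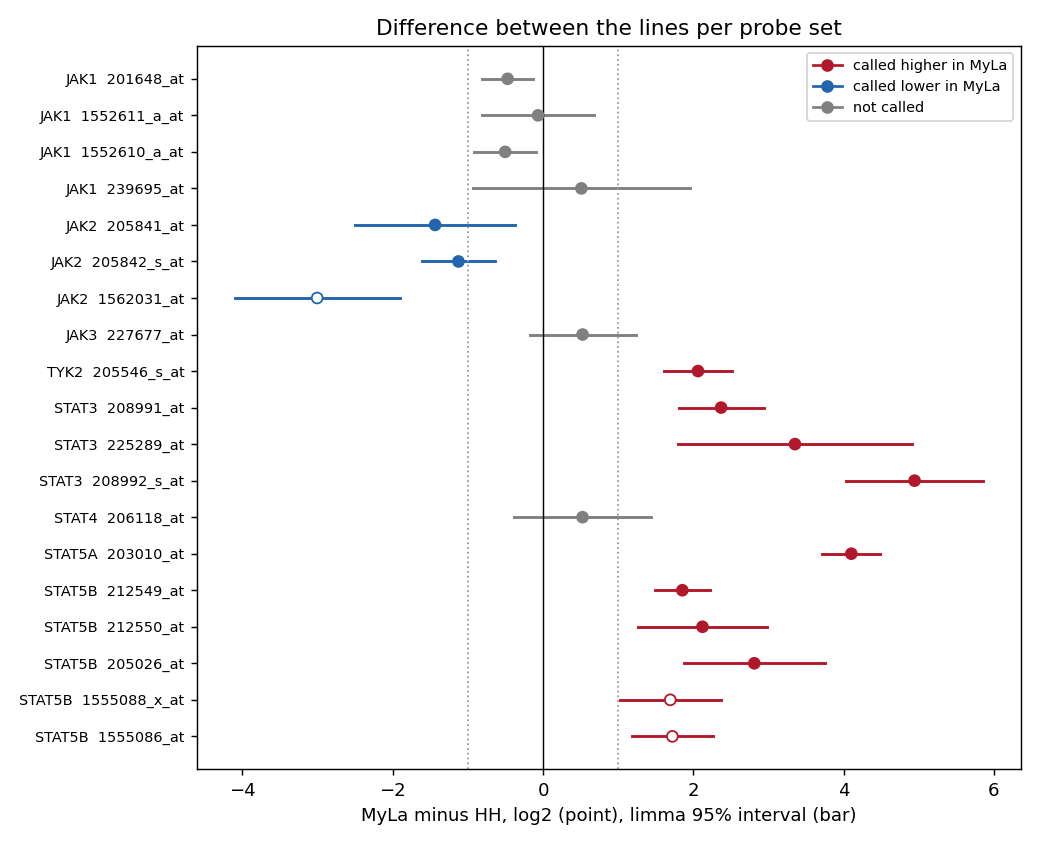
MyLa minus HH in log2 units (x axis) for the 19 JAK and STAT probe sets tested (y axis), with the limma 95% interval as a bar. Open points were at or above 5 in 1 line only, dotted lines mark 2-fold, and 10 probe sets are called higher in MyLa and 3 lower.

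The calls held in all of the other fits for 5 probe sets, 208991_at and 208992_s_at of STAT3, 203010_at of STAT5A, 212549_at of STAT5B and 205546_s_at of TYK2. These kept an adjusted p under 0.05 in all 11 of those fits, which moved the filter, the scaling, the model or left out an array. Without the HH IL-32γ array, and likewise without the HH control array, these 5 were called higher in MyLa, out of 10.

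STAT5B, STAT5A and STAT3 follow each other on chromosome 17 with no other protein-coding gene between them in RefSeq (GRCh38.p14), so their neighbours were set beside them, a choice made after the values of the 3 genes were seen. Of the 8 nearest tested protein-coding genes on each side, each by its brightest probe set, 5 of 16 were called higher in MyLa and none lower, against 19.6% and 17.3% of all genes tested. The difference was above 0 for 15 of the 16, with a median of 0.57, against 0.03 over all genes tested. The share of all genes above 0 was not counted. Beside STAT3, ATP6V0A1, a subunit of the proton pump of vesicles, differed by 2.12 and NAGLU, a lysosomal enzyme, by 1.59. On the STAT5B side GHDC stood at 0.45 and RAB5C, a GTPase of early endosomes, at 1.22. Farther out on that side ZNF385C was at least 40.6-fold higher in MyLa and ODAD4 higher by 4.92. ZNF385C, counted among the 5, was below 5 on both HH arrays. It passed the filter through MyLa alone, so it had to differ. The last gene on the STAT3 side, TUBG1, which encodes gamma tubulin, went the other way (-0.72). The other 11 of the 16 were not called, among them CNP, next to ODAD4, at 0.02.

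The neighbours of JAK2 on chromosome 9 were looked at likewise. Of 16, 5 were called lower in MyLa and 2 higher, against 17.3% and 19.6% of all genes tested. The difference lay below 0 for 12, with a median of -0.76, against 0.03 over all genes tested. The share of all genes below 0 was not counted. AK3, an adenylate kinase of mitochondria, differed by -1.57, and RANBP6 and ERMP1 on the other side by -1.62 and -2.07. The other genes called lower were PLPP6 (-1.51) and SPATA6L, which was below 5 in MyLa and at least 3.31-fold higher in HH. CD274, which encodes the checkpoint ligand PD-L1 and lies close to JAK2, went the opposite way. It read 10.95 with IL-32γ and 11.16 without in MyLa and was below 5 in HH, at least 66.5-fold higher in MyLa. GLIS3, also below 5 in HH, was at least 2.33-fold higher in MyLa. CD274, GLIS3 and SPATA6L each passed the filter through 1 line alone, so they had to differ, and the counts above include them. Around TYK2 on chromosome 19 no common direction was seen, with 9 of 16 neighbours above 0, 3 called higher and 4 lower.

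**Figure D3:**
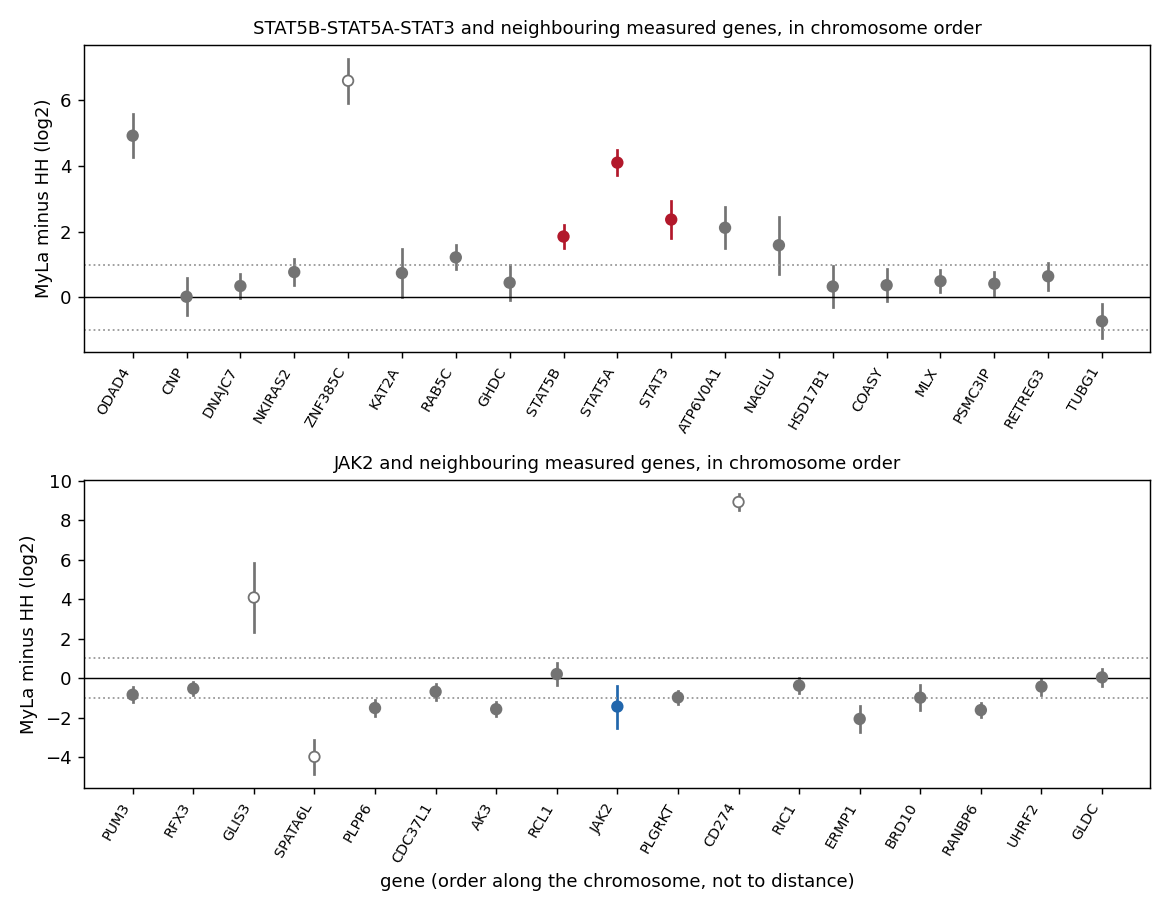
MyLa minus HH in log2 units (y axis) with limma 95% intervals for genes in chromosome order (x axis), STAT5B, STAT5A and STAT3 in red and JAK2 in blue among the 8 nearest tested genes on each side in grey. Open points were at or above 5 in 1 line only, and 15 of 16 neighbours of the STAT genes lie above 0 and 12 of 16 neighbours of JAK2 below it.

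Other genes of the pathway were grouped by role and each read by its brightest probe set. Of 22 tested cytokine receptor genes, 7 were called higher in MyLa and 6 lower, where 19.6% and 17.3% of all genes tested were called so. Their median difference was -0.07, against 0.03 over all genes tested. IL2RA, the high-affinity chain of the IL-2 receptor, was at least 230-fold higher in MyLa, and IL10RA was higher by 4.10. IL23R and IL6R were below 5 in MyLa and at least 105-fold and at least 133-fold higher in HH. IL12RB2, also called lower, was below 5 on both MyLa arrays too, and IL2RA was below 5 on both HH arrays. These receptors each passed the filter through 1 line alone, so they had to differ. IL2RB, another chain of the IL-2 receptor, went opposite to IL2RA and was called lower in MyLa. It read 9.33 with IL-32γ and 9.53 without in MyLa, and 12.73 and 13.05 in HH (-3.46, SE 0.18, adjusted p = 0.000629 in limma). IL2RG, the common gamma chain that JAK3 binds, did not differ beyond the spread (0.04, adjusted p = 0.841 in limma).

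Of 17 tested inhibitors of the pathway, 4 were called higher in MyLa and 5 lower, against the same 19.6% and 17.3% of all genes, with a median of -0.14. Of the 8 genes of the SOCS family on the list, whose best-known members are induced by STATs and block JAKs or receptors, 1 was called lower and 4 higher (SOCS1, SOCS2, SOCS3 and CISH). SOCS4 (-0.48), SOCS5 (-0.11) and SOCS7 (0.58) were not called. These 4 were all of the inhibitors called higher, and the family was set apart after its values were seen. Of the phosphatase genes on the list, PTPN1 (-1.81), PTPN6 (-1.18) and PTPRC (-2.98) were called lower. PTPN2 (0.25) and PTPN11 (-0.20) were not called. SOCS3 was at least 81.2-fold higher in MyLa, and CISH, a classic STAT5 target, read 12.01 with IL-32γ and 12.40 without in MyLa, against 6.64 and 7.11 in HH (5.33, SE 0.25). SOCS1 and SOCS2, named after their values were seen, differed by 3.31 and 1.86. PIAS2 and SOCS6 were below 5 in MyLa, at least 36.9-fold and at least 17.6-fold higher in HH. These genes, and SOCS3, below 5 on both HH arrays, each passed the filter through 1 line alone, so they had to differ.

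Of 19 tested target and partner genes, 11 were called higher in MyLa and 2 lower, against 19.6% and 17.3% of all genes, with a median of 1.41, against 0.03 over all genes tested. BCL6, a transcriptional repressor, read 13.22 with IL-32γ and 13.50 without in MyLa, and 4.72 with IL-32γ and 5.22 without in HH, so its difference of 8.39 rests on HH values at the floor. LIF, a cytokine of the IL-6 family, was at least 56.8-fold higher in MyLa. OSM, LIF and IFIT1, counted among those called higher, were below 5 on both HH arrays. They passed the filter through MyLa alone, so they had to differ. MYC and the kinase gene PIM2 were lower in MyLa, with differences of -1.26 and -1.19. Without the HH IL-32γ array 7 genes were called higher. The count of 2 lower became 1 without the MyLa IL-32γ array or the MyLa control array, and 0 without the HH IL-32γ array or the HH control array. The list was chosen with earlier results of these data known, so its count is a description.

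**Figure D4:**
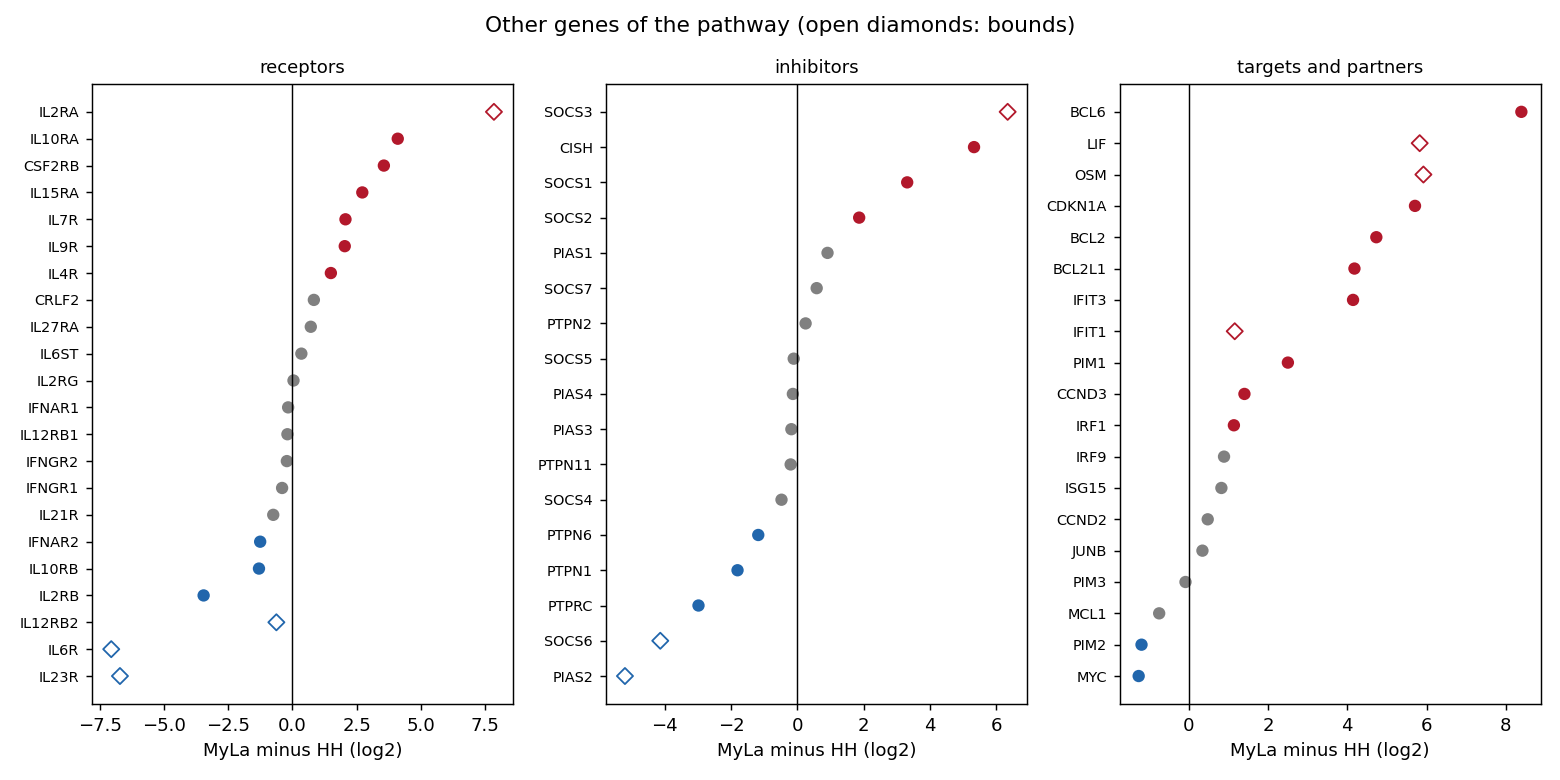
MyLa minus HH in log2 units (x axes) for the tested receptors, inhibitors, and targets and partners of the pathway (y axes), red where called higher in MyLa, blue where called lower and grey where not called. Open diamonds are bounds for genes at or above 5 in 1 line only, which had to differ, and 11 of 19 targets and partners are red.

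IL-32γ was compared with control in each line on 1 array each. In MyLa 18 member probe sets were measured with IL-32γ, without it or both. Of these, 3 were higher with IL-32γ by 1.5-fold or more, against 11.0% of all measured probe sets, and 4 were lower, against 9.13%. In HH 1 of 17 was higher, against 5.45%, and 0 were lower, against 4.02%. The member medians were 0.04 in MyLa and 0.13 in HH, against -0.05 and -0.02 over all measured probe sets. The 5′ probe set of ACTB differed by 1.69 in MyLa and 0.89 in HH, and its part was not tested.

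In MyLa the 3 higher probe sets were 225289_at of STAT3 (2.63-fold), 212550_at of STAT5B (1.64-fold) and 227677_at of JAK3 (1.52-fold). The 4 lower ones were 239695_at of JAK1 (-1.31), 205841_at of JAK2 (-0.96), 205026_at of STAT5B (-0.84) and the STAT4 probe set (-0.76). Other probe sets of the same genes read otherwise. For STAT3 the brightest probe set stood at 0.04 and 208992_s_at at -0.37, against 1.39 on 225289_at. For STAT5B the brightest stood at 0.14 between the 0.72 and the -0.84 of the others. The brightest JAK1 probe set stood at -0.01. On 239695_at MyLa read 5.75 with IL-32γ and 7.06 without, so the lower value lay near the floor. For JAK2 205842_s_at was at 0.31, opposite to 205841_at. Of 4 genes with several measured probe sets in MyLa, 1 had them all of 1 sign, which was JAK1, and 0 had them all past 1.5-fold. JAK3 and STAT4 have no second measured probe set to set beside theirs.

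In HH the 1 probe set past 1.5-fold was 208992_s_at of STAT3, higher by 1.67-fold with IL-32γ from a control value of 5.09, next to the floor. The other STAT3 probe sets were at 0.45 and 0.50, so all 3 were higher with IL-32γ in HH. STAT3 was the 1 gene of 4 whose measured probe sets in HH were all of 1 sign. STAT5A stood at -0.20, TYK2 at -0.27, JAK3 at 0.10 and STAT4 at -0.33.

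**Figure D5:**
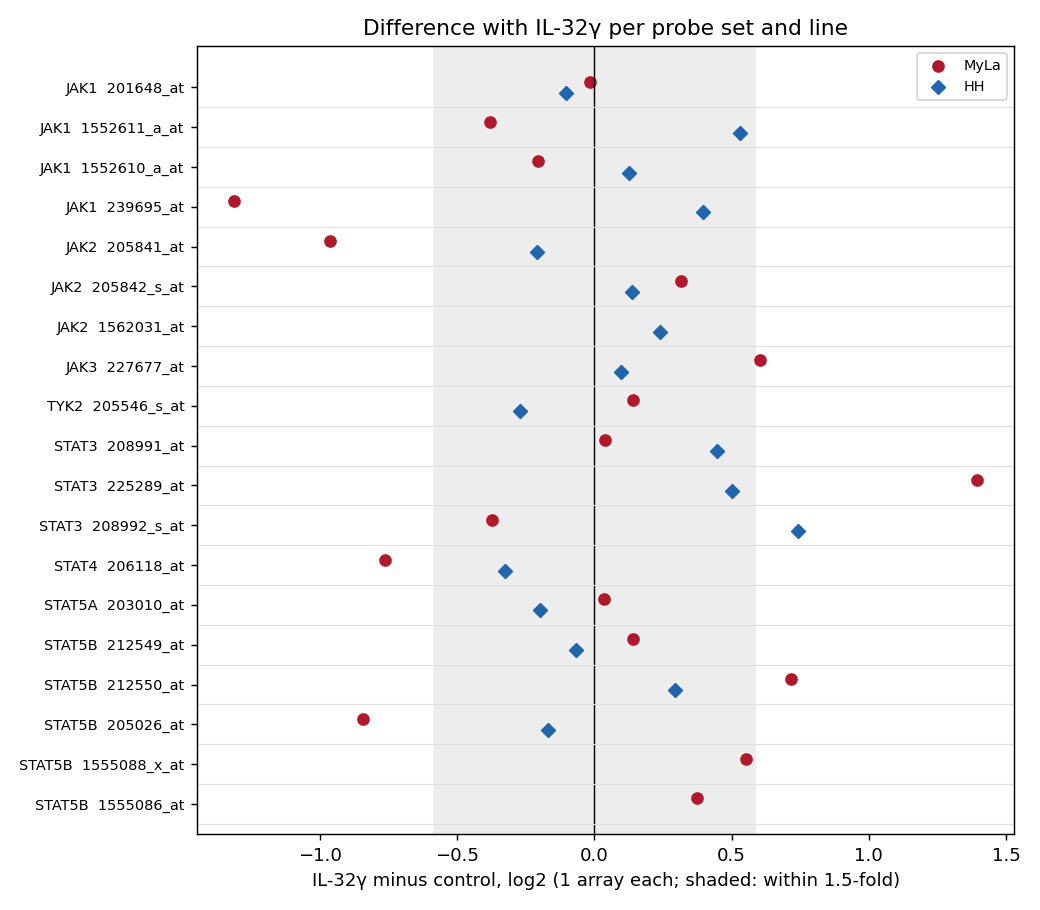
IL-32γ minus control in log2 units (x axis) for the member probe sets (y axis), 1 point for MyLa and 1 for HH, drawn where 1 or both arrays of the line reached 5. The shaded band is within 1.5-fold, outside which lie 7 MyLa points on both sides and 1 HH point.

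With the 2 lines as replicates and the line as a block, limma called 0 of the 19 probe sets for IL-32γ, as it called 0 of all 25306. The adjusted p-values of the members lay between 0.462 and 0.929. At an unadjusted p under 0.05 there were 2 members, 225289_at of STAT3 (mean difference 0.95) and 206118_at of STAT4 (-0.54), against 10.7% of all probe sets. STAT4 was lower with IL-32γ in both lines, by 0.76 and 0.33 on the log2 scale. The fit has 1 residual degree of freedom. Of 16 member probe sets measured in both lines, 9 had the same sign in both. The share of all probe sets with the same sign in both was not counted. Of the same 16, 0 were higher by 1.5-fold in both, against 2.14% of all, and 0 were lower in both, against 1.00%.

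The other genes of the pathway were counted at 1.5-fold with IL-32γ in the same way. Over all genes, by their brightest probe sets, 7.77% were higher and 7.65% lower in MyLa, and 1.14% higher and 4.46% lower in HH. Of 19 receptors measured in MyLa, IL21R was higher (0.64), and of 21 measured in HH, IL12RB2 (-0.998), IL10RA (-0.94) and IL4R (-0.78) were lower. None of the inhibitors passed in either line, with 15 measured in MyLa and 16 in HH. CISH stood at -0.39 in MyLa and -0.48 in HH, and SOCS3 at 0.25 in MyLa. Of 19 targets and partners measured in MyLa, ISG15 (1.23), PIM1 (0.82) and BCL2L1 (0.73) were higher and IFIT1 (-0.76) and CCND3 (-0.67) lower, and of 16 measured in HH, IFIT3 was lower (-0.82). STAT6, the factor of IL-4 signalling, stood at 0.19 in MyLa and -0.22 in HH and did not differ between the lines beyond the spread (adjusted p = 0.133 in limma).

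The genes whose pattern over the 4 arrays came closest to that of a member were found by distance after removing each probe set's mean. Closest to 208992_s_at of STAT3, the probe set with the highest difference between lines, were WDR11 (distance 0.16), LRRC18 (0.18) and RFLNB (0.21). LRRC18 and RFLNB were below 5 in HH, so their distances rest partly on values not measured. No likeness is given for 1562031_at of JAK2, at the other end, since it was below 5 on both MyLa arrays.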

How the data were processed

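Log2 expression values per probe set were deposited by the authors after GCRMA, per the submitters' processing notes, from biotin-labelled total RNA. The log2 scale was read from the values (2.13 to 16.0). The sources used here give neither the GCRMA version nor joint or separate normalisation of the 4 arrays. Names came from the array's annotation, updated by Entrez identifier through RefSeq (GRCh38.p14). It gave 1 symbol to 41097 probe sets and several to 1801, and 11777 were not listed.

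Within a line, values below 5 were raised to 5 before IL-32γ minus control was taken, and 1.5-fold was the threshold. Between lines, and for IL-32γ over both lines with line as a block, limma 3.58.1 (R 4.3.3) was fitted to the deposited values of probe sets at 5 or more on at least 2 arrays. Tests were two-sided and adjusted by Benjamini-Hochberg. The fits were tested on simulated data without mean levels near the floor, where both recovered 0 of 50 2-fold changes. A line call there also needed an estimated difference of 2-fold or more, and an IL-32γ call did not. The 2 fits were thus not judged by the same rule. Of 50 4-fold changes, the line fit recovered 23 and the IL-32γ fit 4. Far fewer probe sets were changed there than were called between the lines here, so those rates do not carry over to the line fit. A probe set not called may still differ. A bound sets the bright line's mean against the other line's values raised to 5. Alternatives were other floors, scalings, models, shared-probe filters and leaving out arrays. Python 3.11.15, pandas 2.3.3 and matplotlib 3.10.9 were used.

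All members are reported. Of other pathway genes, the rule named per list the 2 largest called differences between lines per direction and up to 3 per direction past 1.5-fold with IL-32γ. Genes named besides were chosen after their values were seen. Members and lists were chosen with earlier results of these data known. Protein sequences were not used here.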

Additional observations from a re-analysis of the deposited data

Results flagged for a closer look

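On 239695_at of JAK1 the 2 lines differed with IL-32γ in opposite directions, by -1.31 in MyLa and 0.40 in HH. On 208992_s_at of STAT3 they did so by -0.37 in MyLa and 0.74 in HH. These 2 probe sets passed 1.5-fold in 1 line and had the opposite sign in the other. With 1 array per condition the difference between the lines was not tested. For JAK1, 1552611_a_at (-0.38 in MyLa and 0.53 in HH) and 1552610_a_at (-0.21 and 0.13) had the same opposite signs, within 1.5-fold. The brightest JAK1 probe set, 201648_at, did not (-0.01 and -0.10). The other measured STAT3 probe sets were higher with IL-32γ in both lines.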

How the results depend on the processing

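Of the 13 called member probe sets between lines, the 10 higher and 3 lower in MyLa became 5 and 0 when no filter on low values was used. Leaving out 1 array gave 5 to 10 higher and 0 to 2 lower, with 5 and 0 without the HH IL-32γ array and likewise without the HH control array. A line left with 1 array is assumed to vary like the other. With no filter, 4 receptors were called higher in MyLa, against 7 with it, and 0 targets lower, against 2. Within MyLa the counts of 3 higher and 4 lower became 1 and 1 at a 2-fold threshold. The 1 higher in HH became 0 at 2-fold, with a floor of 6, and without probe sets whose probes are shared. The brightest JAK2 probe set was lower in MyLa with IL-32γ (-0.96), and the mean over its 3 probe sets was at 0.12, which includes 1562031_at, below 5 on both MyLa arrays. Over the probe sets measured in MyLa, a choice made after seeing the data, the mean was -0.32. With IL-32γ over both lines, 0 members were called under the other floors, scalings, models and filters run. Leaving out an array there leaves no residual degrees of freedom, so it was not run. The labels number no replicates. With IL-32γ treatment as a block, 10 and 3 member probe sets were called between the lines. With 4 arrays the number of arrays limits the precision.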
